A study of Mus musculus with 8 samples.

Results

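The genes examined are 9 that liver biology places under Wnt control around the central vein: *Glul*, *Axin2*, *Lgr5*, *Tbx3*, *Rhbg*, *Slc1a2*, *Rgn*, *Gulo* and *Slc13a3*. They were taken as a given list of symbols, chosen, like the other gene lists below, with earlier results of these data known. Each gene was represented by the probe set that names that gene alone and has the highest mean signal over the arrays. All 9 of 9 were measured, among 19938 genes in all. The data are 8 microarrays (Affymetrix Mouse Gene 1.0 ST, 1 colour, several short probes per transcript), with 1 liver sample of a C57BL6 mouse on each. The 4 control and 4 hydrogen water liver samples were all taken after a fast of 17 h. Hydrogen water is drinking water with dissolved molecular hydrogen. Mice of the hydrogen water group had drunk it for 4 weeks from an age of 7 weeks. The treatment text is the same on the control samples, and no separate age of the controls is given here. The labels do not describe the water of the control mice, the sex of either group, or whether each array is a separate animal. Below, a liver means the sample on 1 array. Were animals shared between arrays, a p-value would reflect only how these samples spread, which may be technical. The deposited values are log2 signals, so a difference of 1 is a doubling, and signals of different probe sets are set against each other only in a coarse check against the median level of all genes.

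As background, the hepatocytes of a liver lobule differ with their place along the path from the portal tract to the central vein. Endothelial cells at and near the central vein secrete Wnt ligands and R-spondins. These stabilise beta-catenin in the neighbouring hepatocytes, where it acts with TCF factors to switch on a pericentral programme. Glutamine synthetase, the product of *Glul*, is found in the ring of hepatocytes next to the vein and is the classic marker of that programme. Genes of 1 zone are often read together as a measure of how much of that zone a piece of liver holds.

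RefSeq promoter windows (GRCm38.p6) were at hand for 4 of the 9 genes. The windows of *Glul* and *Slc1a2*, which had the highest positive differences between the groups (below), are shown as the 250 bases before the start of transcription. Capitals mark a TCF/LEF core, searched on both strands as CTTTGNN, where each N stands for A or T. The letters CAAAG of this core are also part of motifs bound by HNF4A, a hepatocyte nuclear receptor.
*Glul*, chr1:153899679-153899928, plus strand: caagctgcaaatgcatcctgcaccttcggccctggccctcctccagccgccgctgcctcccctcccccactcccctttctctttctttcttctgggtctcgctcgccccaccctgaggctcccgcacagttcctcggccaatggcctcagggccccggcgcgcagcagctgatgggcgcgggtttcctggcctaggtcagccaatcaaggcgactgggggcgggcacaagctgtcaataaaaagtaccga
*Slc1a2*, chr2:102706188-102706437, plus strand: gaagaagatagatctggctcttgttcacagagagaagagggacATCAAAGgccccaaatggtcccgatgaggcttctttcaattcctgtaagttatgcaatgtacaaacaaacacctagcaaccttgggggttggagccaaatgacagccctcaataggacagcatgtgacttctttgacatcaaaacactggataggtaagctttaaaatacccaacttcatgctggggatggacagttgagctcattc
*Slc1a2* held 1 match, ATCAAAG, and *Glul*, *Axin2* and *Slc13a3* held 0 matches in this window. Of 32851 RefSeq windows of that length, 14.8% held a match, so 1 of 4 windows is a description of these sequences and nothing more. The windows also differ in composition, with 64.8% G and C for *Glul*, 69.2% for *Axin2*, 67.6% for *Slc13a3* and 44.8% for *Slc1a2*.

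The arrays were alike in scale. Their median signal over all probe sets lay between 5.27 and 5.37, and their mean correlation with the other arrays of their group lay between 0.989 and 0.994, lowest for control 3. The labelled tissue showed its defining transcripts: 9 of 9 measured hepatocyte markers lay above the median level of all genes (5.87), with albumin (*Alb*) at a mean of 14.35 over the 8 arrays. Markers of pancreatic acinar cells, adipocytes and bile duct lay mostly below that level, with 1 of 5, 1 of 5 and 1 of 7 measured markers above it. All 9 Wnt target genes lay above 5.87 on 8 of 8 arrays. Array signals come from whole tissue, where fewer cells of a type and less RNA per cell cannot be told apart.

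The first comparison asked whether the pericentral Wnt targets differed between the livers of mice given hydrogen water and controls. None passed the test over all genes. With limma and Benjamini-Hochberg adjustment over 19938 genes, 0 of 9 had an adjusted p under 0.05, beside 0% of all genes. Of the 9 genes, 3 stood higher and 6 lower with hydrogen water, with a median difference of −0.07 on the log2 scale. Over all genes, 51.3% stood lower and the median difference was −0.00. The largest positive difference was that of *Glul*, at 1.26-fold, and the largest negative that of *Rgn*, at 0.795-fold. The groups of arrays overlapped for all 9 genes, where 3.76% of all genes had groups that did not overlap. At an unadjusted p under 0.05 there was 1 of the 9, *Glul*, against 7.17% of all genes. For the other probe set named *Glul* (below) the limma unadjusted p was 0.0749.

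*Glul* encodes glutamine synthetase, which joins ammonia to glutamate and clears the ammonia that periportal hepatocytes leave behind. Its log2 signal was 12.47, 12.34, 11.86 and 12.06 on controls 1 to 4, and 12.43, 12.41, 12.61 and 12.62 on hydrogen water 1 to 4. The hydrogen water values lay close together, whereas controls 3 and 4 were low, control 2 lay just below the treated livers and control 1 within their range. The means were 12.52 ± 0.11 (SD, n = 4) and 12.18 ± 0.27 (SD, n = 4). The difference was 0.33 (SE 0.14, 95% interval 0.04 to 0.63), or 1.26-fold with an interval of 1.03 to 1.55 (limma unadjusted p = 0.0307, adjusted p = 0.687). Without control 3 the difference was 0.23 and the unadjusted p 0.0896. A second probe set also carries the symbol *Glul*, with the same Entrez identifier and RefSeq transcript. The list of matched transcripts is longer for the brighter set, and whether that set lies at *Glul* itself or at a copy of the gene was not tested. Where not said to be of the other set, the *Glul* values and correlations here come from the brighter set. They may therefore not be those of *Glul* itself. The other set gave 11.79 ± 0.24 (SD, n = 4) in controls and 12.04 ± 0.13 (SD, n = 4) with hydrogen water, a difference of 0.25 (SE 0.13, 95% interval −0.03 to 0.54; limma unadjusted p = 0.0749). The pair of probe sets followed each other over the 8 arrays (Pearson r = 0.97, Spearman rho = 0.95, given as a description of probe sets annotated to the same gene).

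*Slc1a2* encodes a glutamate transporter of the plasma membrane, which supplies the substrate of glutamine synthetase. Its signal was 10.92, 10.79, 11.36 and 11.08 on controls 1 to 4, and 11.25, 11.34, 11.34 and 11.18 on hydrogen water 1 to 4. Control 3 had the highest value of all 8 arrays, and the other 3 controls lay below every hydrogen water array. The difference was 0.24 (SE 0.13, 95% interval −0.04 to 0.51; limma adjusted p = 0.737). Without control 3 it was 0.35 (unadjusted p 0.0077), and without control 2 it was 0.16 (unadjusted p 0.249). *Glul* and *Slc1a2* shared a direction between groups but had opposite outlying controls: control 3 was the lowest control for *Glul* and the highest for *Slc1a2*.

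*Rhbg* encodes an ammonia transporter of the Rhesus family, found in the same cells. Its signal was 8.21, 8.54, 8.47 and 8.29 on controls 1 to 4, and 8.64, 8.15, 8.17 and 8.24 on hydrogen water 1 to 4. Hydrogen water 1 was the highest array and the other 3 treated livers lay below 3 of the 4 controls. The difference was −0.08 (SE 0.13, 95% interval −0.37 to 0.21; limma adjusted p = 0.933), and it ran from −0.03 without control 2 to −0.19 without hydrogen water 1. Of the genes that handle ammonia and glutamate, *Glul* and *Slc1a2* had positive differences and *Rhbg* a negative one, and the intervals of *Slc1a2* and *Rhbg* span 0.

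Feedback and receptor genes of the pathway itself were also among the 9. *Axin2* encodes a scaffold of the complex that destroys beta-catenin and is a direct Wnt target in many tissues. Its signal was 6.47, 6.64, 6.70 and 6.61 on controls 1 to 4, and 6.56, 6.29, 6.26 and 6.74 on hydrogen water 1 to 4. Hydrogen water 2 and 3 were the lowest arrays and hydrogen water 4 the highest. The difference was −0.14 (SE 0.12, 95% interval −0.41 to 0.13; limma adjusted p = 0.861), and it ran from −0.07 without hydrogen water 3 to −0.23 without hydrogen water 4.

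*Lgr5* encodes a receptor for R-spondins, the secreted proteins that strengthen Wnt signals. Its signal was 7.78, 7.46, 7.97 and 7.09 on controls 1 to 4, and 7.52, 6.83, 7.88 and 6.99 on hydrogen water 1 to 4. Both groups held high and low livers, and the values ran over 1.14 log2 units. The difference was −0.27 (SE 0.24, 95% interval −0.79 to 0.24; limma adjusted p = 0.858). It ran from −0.12 without hydrogen water 2 to −0.47 without hydrogen water 3, and was −0.07 with array weights. Its spread within groups (residual SD 0.44) exceeded that of 97.9% of genes, counted as a percentile, so its interval was the widest of the 9.

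*Tbx3* encodes a T-box transcription factor that depends on beta-catenin in the liver. Its signal was 9.05, 8.20, 8.27 and 8.44 on controls 1 to 4, and 8.70, 8.38, 8.88 and 8.72 on hydrogen water 1 to 4. Control 1 was the highest array and the other controls were low, apart from an overlap of control 4 with hydrogen water 2. The difference was 0.18 (SE 0.18, 95% interval −0.21 to 0.57; limma adjusted p = 0.882). Without control 1 it was 0.36 (unadjusted p 0.0221), and without control 2 it was 0.08 (unadjusted p 0.666).

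*Rgn* and *Gulo* encode enzymes of vitamin C synthesis, which mice carry out in the liver: regucalcin, a gluconolactonase, and L-gulonolactone oxidase, which performs the last step. *Rgn* stood at 11.42, 11.15, 10.65 and 11.33 on controls 1 to 4, and at 11.09, 10.84, 10.97 and 10.32 on hydrogen water 1 to 4. Hydrogen water 4 was the lowest array and control 3 the lowest control, while the other 3 controls lay above all treated livers. The difference was −0.33 (SE 0.19, 95% interval −0.75 to 0.09; limma adjusted p = 0.762). It was −0.17 without hydrogen water 4 (unadjusted p 0.351) and −0.49 without control 3 (unadjusted p 0.0139).

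*Gulo* stood at 12.01, 11.77, 11.74 and 11.99 on controls 1 to 4, and at 11.90, 11.75, 11.80 and 11.79 on hydrogen water 1 to 4. The whole range over the arrays was 0.26, with controls 1 and 4 highest. The difference was −0.07 (SE 0.10, 95% interval −0.29 to 0.16; limma adjusted p = 0.929). It ran from −0.02 without control 1 to −0.11 without control 3, and the residual SD of 0.11 was the smallest of the 9 genes. *Slc13a3*, which encodes a sodium-coupled transporter of dicarboxylates such as succinate, stood at 7.47, 7.34, 7.33 and 7.26 on controls 1 to 4, and at 7.57, 7.24, 7.07 and 7.40 on hydrogen water 1 to 4. The treated livers surrounded the controls on both sides. The difference was −0.03 (SE 0.12, 95% interval −0.29 to 0.23; limma adjusted p = 0.978).

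**Figure D1:**
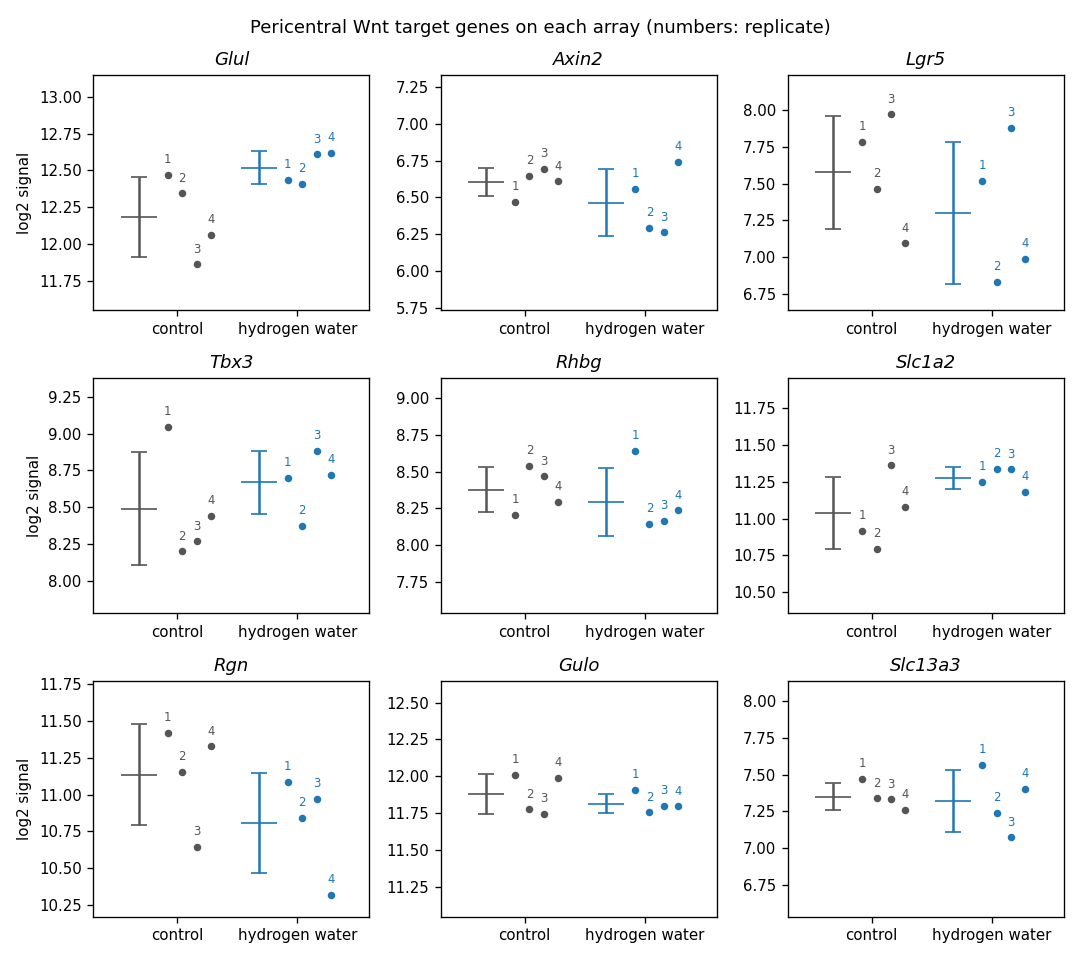
Log2 signal (y axis) of each of the 9 genes on the control (grey) and hydrogen water (blue) arrays. Numbered points are replicates 1 to 4, and the bar with whiskers is the mean ± SD (n = 4). All panels span the same number of log2 units, and in each panel the groups overlap.

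**Figure D2:**
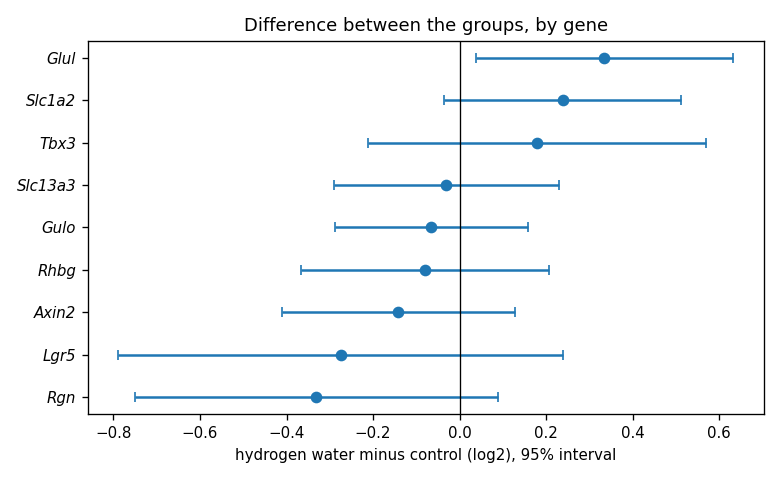
Difference between hydrogen water and control (x axis, log2) for each gene, with the 95% interval from limma as whiskers. The interval of *Glul* (0.04 to 0.63) lies above 0 before adjustment for multiple testing, and the other 8 include 0. That of the other *Glul* probe set, not drawn, also includes 0 (−0.03 to 0.54).

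The second question was whether the 9 genes varied together over arrays. Their pairwise correlations lay on both sides of 0. Over 36 pairs, the median Pearson r over 8 arrays was 0.01, with quartiles of −0.22 and 0.23 and a range from −0.55 to 0.72. Of these pairs 21, or 58.3%, had a positive r, and 16.7% had an r above 0.5. Over all pairs of the 19938 genes the median r was 0.00, with 50.0% positive and 12.3% above 0.5. Over pairs of genes above the median level, where all 9 lie, it was 0.04, with 52.9% positive and 16.7% above 0.5. The 9 genes' distribution lay close to that of genes at large, and removing the group means left the median at 0.01.

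The pair with the highest r was *Rgn* and *Gulo*, the vitamin C enzymes (r = 0.72, exact permutation p = 0.0423; rho = 0.74, exact permutation p = 0.0458). Without control 1 and hydrogen water 4, the arrays farthest from the median of *Rgn*, r was 0.79. Leaving out controls 1 and 4, the arrays farthest from the median of *Gulo*, was not tried for this pair. The next was *Glul* and *Tbx3* (r = 0.65, exact permutation p = 0.0818; rho = 0.79, exact permutation p = 0.0279), with r = 0.65 without controls 3 and 4. *Rhbg* and *Slc13a3* had r = 0.56, but 0.26 without control 2 and hydrogen water 1. *Axin2* and *Rhbg* had r = 0.54, but 0.04 without hydrogen water 2 and 3, so that relation rests on those arrays. At the other end, *Slc1a2* and *Rgn* had r = −0.55 (−0.30 without controls 1 and 2). After Benjamini-Hochberg adjustment over the 36 pairs, 0 passed 0.05. The lowest adjusted p of the exact permutation tests was 0.96 for r and 0.62 for rho.

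*Glul*, the classic pericentral marker, ran with neither the feedback and receptor genes nor the other genes of ammonia and glutamate handling. *Glul* had r = −0.41 with *Axin2*, −0.20 with *Lgr5*, −0.36 with *Rhbg* and −0.09 with *Slc1a2*. With the group means removed, *Glul* and *Slc1a2* had r = −0.84, and the controls with high *Glul* (1 and 2) had the lowest *Slc1a2*. Against the mean of the other 8 genes, r was highest for *Gulo* (0.50) and *Tbx3* (0.42) and lowest for *Slc1a2* (−0.42).

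**Figure D3:**
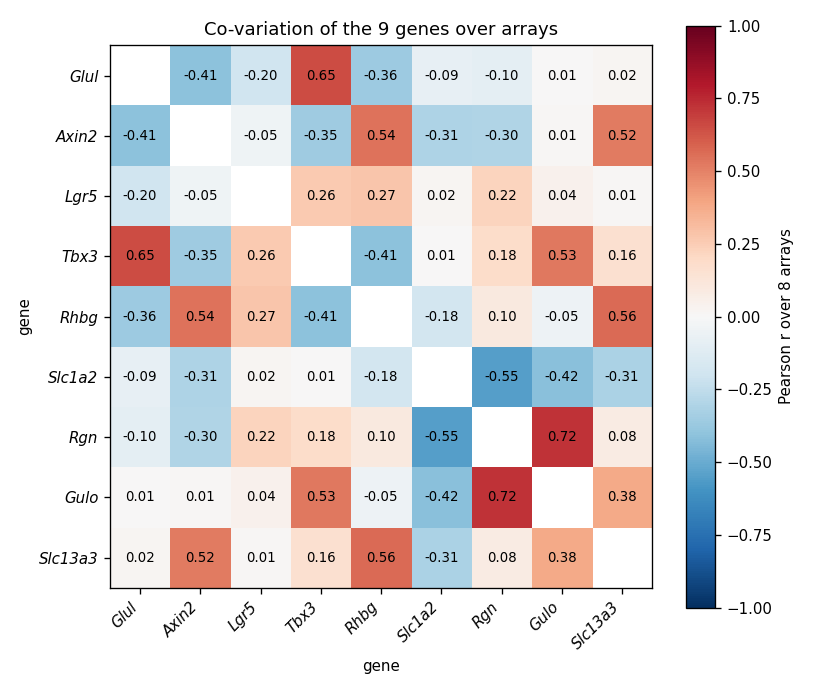
Pearson r over the 8 arrays (colour and printed value) for each pair of the 9 genes, named on both axes. Positive values (red) and negative values (blue) are mixed, from −0.55 for *Slc1a2* and *Rgn* to 0.72 for *Rgn* and *Gulo*.

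Other zonal genes give a scale for this. For each array the log2 signals of a list were averaged after centring each gene on its mean. The mean of the 9 genes was 0.14, −0.03, −0.02 and −0.04 on controls 1 to 4, and 0.12, −0.15, 0.05 and −0.06 on hydrogen water 1 to 4. Control 1 and hydrogen water 1 were highest and hydrogen water 2 was lowest, and the group means differed by −0.02. A list of other pericentral genes, 24 of 30 measured and led by cytochrome P450 genes, stood at 0.20 on control 1, at −0.13 on hydrogen water 2 and between −0.08 and 0.05 on the rest. The 2 list means had r = 0.71 and rho = 0.55 over 8 arrays. Without control 1 and hydrogen water 1, the arrays farthest from the median for the 9 genes, r was 0.80. Control 1 was the highest and hydrogen water 2 the lowest array in both lists. How far the relation rests on that pair of arrays was not tested. These r describe means that share arrays and are given without a p.

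Periportal genes, 25 of 30 measured, ranged from −0.28 on control 3 to 0.21 on hydrogen water 4. The mean of the 9 genes had r = 0.17 and rho = 0.14 with the periportal mean over 8 arrays, and the other pericentral genes had r = 0.42 and rho = 0.62 with it (r = 0.12 without control 1 and hydrogen water 2). Neither r was negative. The median pairwise r was 0.37 within the periportal list, 0.09 within the other pericentral genes and 0.01 within the 9. *Glul* itself had r = 0.76 with the periportal mean (exact permutation p = 0.0262; rho = 0.79, exact permutation p = 0.0279), but 0.33 without control 3 and hydrogen water 4. With the group means removed this r was 0.91. Against the mean of the other pericentral genes, *Glul* had r = 0.20 and rho = 0.50, and r = 0.54 with the group means removed. *Tbx3* followed the other pericentral genes (r = 0.80, exact permutation p = 0.0095; rho = 0.79, exact permutation p = 0.0279), with 0.71 without control 1 and hydrogen water 2.

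The means of Kupffer cell and sinusoidal endothelial markers spanned a wider range over the arrays than those of the 3 zonal lists. The median pairwise r was 0.75 within the Kupffer markers and 0.72 within the endothelial markers, against 0.01 within the 9 genes. Kupffer cell markers, genes of the resident liver macrophages, had a positive difference in 11 of 11 measured genes, with a median of 0.39. Their mean ran from −0.43 to 0.15 over controls and from −0.15 to 0.61 with hydrogen water, highest on hydrogen water 4. Sinusoidal endothelial markers stood higher in 10 of 10, with a median of 0.33 and array means from −0.47 to 0.09 in controls and from −0.17 to 0.44 with hydrogen water. No gene of either list had an adjusted p under 0.05 (0 of 11 and 0 of 10), and 4 and 3 had an unadjusted p under 0.05, against 3.6% of all genes on the higher side.

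*Rgn* ran opposite to the Kupffer markers, with r = −0.93 over the 8 arrays (exact permutation p = 0.00112; rho = −0.90, exact permutation p = 0.00456) and −0.83 without control 4 and hydrogen water 4. With the group means removed it was −0.92. *Rhbg* ran opposite to the sinusoidal endothelial markers, with r = −0.87 (exact permutation p = 0.00429; rho = −0.90, exact permutation p = 0.00456) and −0.88 without control 2 and hydrogen water 2. These were the lowest p of 144 relations between the 9 genes and 16 lists, of which 12 had an unadjusted p under 0.05 for r. After adjustment over all 144, 0 passed. The adjusted p of the exact permutation tests were 0.161 and 0.309 for r, and 0.329 for both rho. The part of Kupffer or endothelial RNA in the differences of *Rgn* and *Rhbg* was not tested.

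**Figure D4:**
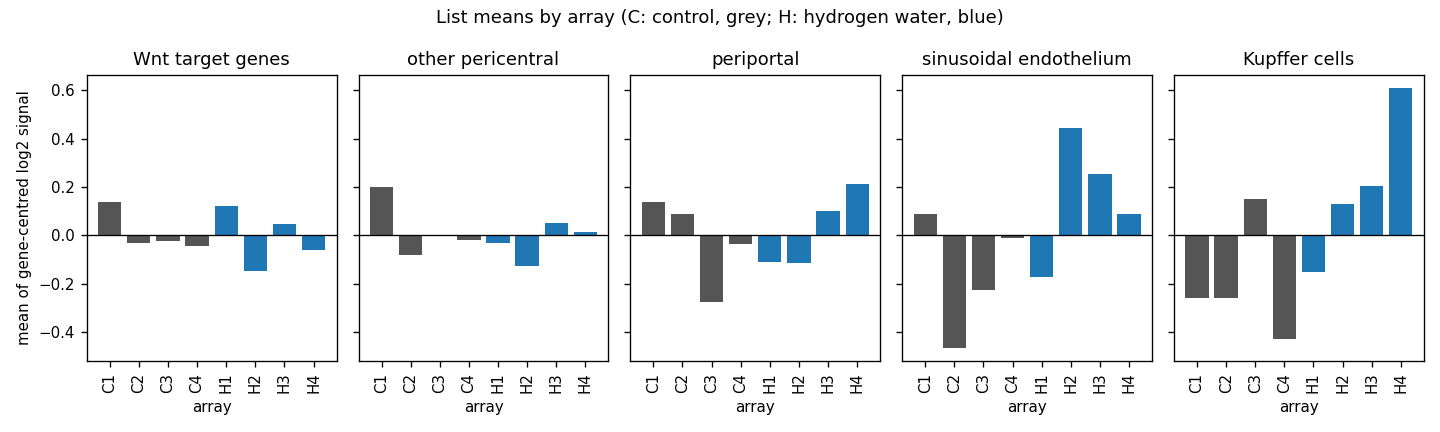
Mean of gene-centred log2 signals (y axis) on each control (C1 to C4, grey) and hydrogen water (H1 to H4, blue) array for 5 gene lists. The mean of the 9 Wnt target genes stays between −0.15 and 0.14, whereas that of Kupffer cell markers runs from −0.43 to 0.61. Single genes of the 9 can range further, as *Lgr5* does over 1.14 log2 units.

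The rest of the Wnt pathway was read from lists ordered by role. Ligands and their partners showed no called gene: of 15 measured, 8 stood higher and 7 lower, with a median difference of 0.00. *Wnt2* and *Wnt9b*, ligands of the liver endothelium, differed by 0.02 (SE 0.16) and 0.12 (SE 0.10), and the R-spondin *Rspo3* by 0.02 (SE 0.12). The largest negative difference relative to its SE was that of *Wnt5a* (−0.24, SE 0.11), a ligand known mainly for beta-catenin-independent signalling. The mean signal of *Wnt5a* (4.66) lay below the median level of all genes. Markers of the central vein endothelium, 10 of 11 measured, had a median difference of −0.04, with 4 higher and 6 lower.

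Among receptors and the ligases that remove them, 8 of 18 stood higher and 10 lower, with a median of −0.00. The co-receptor *Lrp6* differed by 0.30 (SE 0.13, limma unadjusted p = 0.0354) and the Frizzled receptor *Fzd7* by −0.29 (SE 0.13, limma unadjusted p = 0.0400), both with an adjusted p of 0.687. *Lgr4*, the R-spondin receptor present across the lobule, differed by 0.13 (SE 0.11), and the ligases *Znrf3* and *Rnf43* by −0.00 (SE 0.12) and 0.21 (SE 0.28).

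Of the destruction complex and its regulators, 12 of 16 stood higher, with a median of 0.07 and 0 called. Beta-catenin (*Ctnnb1*) differed by −0.03 (SE 0.12), its partner in degradation *Apc* by 0.16 (SE 0.16), *Axin1* by −0.12 (SE 0.12) and the tankyrase *Tnks*, which marks axin for degradation, by 0.27 (SE 0.16). Of 12 measured nuclear factors and cofactors, 7 stood higher, with a median of 0.07. Of the 12, 9 had a mean signal above the median level of all genes, but not *Pygo1* (5.09). *Tcf7l2*, the main TCF factor of the liver, differed by 0.27 (SE 0.20), *Hnf4a* by 0.13 (SE 0.13), the cofactor *Bcl9l* by 0.30 (SE 0.13, limma adjusted p = 0.687) and *Pygo1* by −0.10 (SE 0.10).

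Inhibitors and feedback targets also split, with 8 of 15 higher and a median of 0.02. Of the 15, 3 had a mean signal above the median level of all genes, so most of this list was dim. *Nkd1* and *Notum*, feedback inhibitors that the pathway switches on, differed by 0.19 (SE 0.11) and 0.18 (SE 0.16), *Sp5* by −0.20 (SE 0.12) and *Sfrp5* by −0.27 (SE 0.13). *Sp5* and *Sfrp5* had means below that median level (5.31 and 4.95), and *Nkd1* and *Notum* above it (7.05 and 7.76). Together with *Axin2* at −0.14 (mean signal 6.53), the feedback genes differed in sign, also among those above that level. Over the 5 pathway lists, 0 genes had an adjusted p under 0.05.

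**Figure D5:**
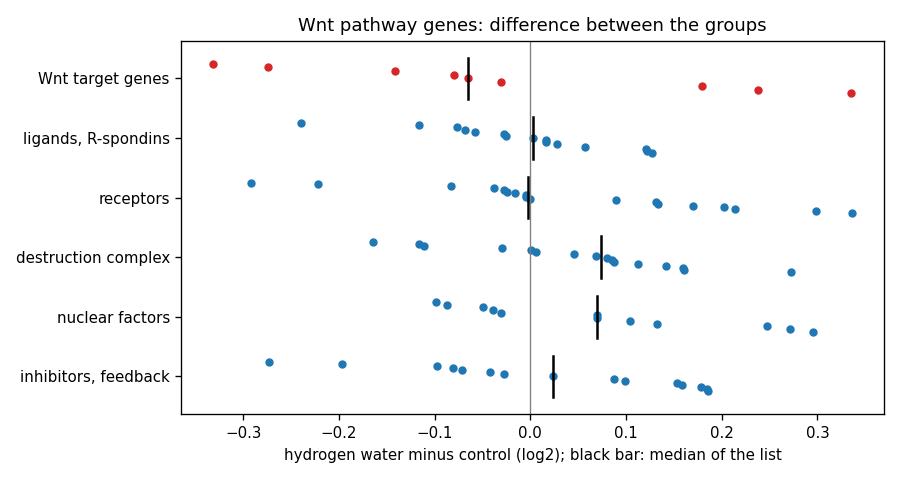
Difference between hydrogen water and control (x axis, log2) for each measured gene of the 9 Wnt targets (red) and of 5 lists of Wnt pathway genes by role (blue), with the median of each list as a black bar. The points of every list lie on both sides of 0, and the list medians run from −0.07 for the targets to 0.07 for the destruction complex.

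Other pericentral genes were divided in the same manner, with 11 of 24 higher and 13 lower and a median difference of −0.07. The cytochromes *Cyp2e1* and *Cyp1a2*, which also depend on beta-catenin, differed by −0.04 (SE 0.09) and −0.18 (SE 0.11), and ornithine aminotransferase (*Oat*) by 0.06 (SE 0.10). The uptake transporter *Slco1b2* differed by −0.29 (SE 0.11) without overlap of the groups, and the amino acid transporter *Slc16a10* by 0.35 (SE 0.14). Periportal genes stood higher in 17 of 25, with a median of 0.05, and the periportal cytochrome *Cyp2f2* differed by 0.08 (SE 0.14). The urea cycle enzyme *Otc* (−0.25, SE 0.11) and the apolipoprotein *Apoa4* (0.16, SE 0.11) had the lowest and highest difference relative to SE, and the groups did not overlap for *Otc*. None of the 24 pericentral or 25 periportal genes was called (0 and 0).

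The genes whose pattern over the 8 arrays was most like that of *Glul* were sought among 9662 genes above the median level. The highest r belonged to *Tbc1d14* (0.97), *Anp32a* (0.97), *Limk2* (0.97), *Mtx3* (0.97) and *Zfp839* (0.96), and the lowest to *Chst13* (−0.97), *Ldlrad1* (−0.96) and *Cant1* (−0.96). For the mean of the 9 genes they were *Nhlrc2* (0.90), *Epb41l4b* (0.90), *Fam47e* (0.89), *Fam207a* (0.88) and *Sntb2* (0.88), and, lowest, *Dnaja4* (−0.97), *Net1* (−0.94) and *Clec1a* (−0.93). None of these names is on a zonal list used here, and with so many genes and 8 arrays such values describe likeness and nothing else.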

How the data were processed

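RNA from 8 liver samples of fasted mice was extracted with an RNeasy Mini kit and amplified with the Ambion WT Expression kit, per the labels' protocols. Sample titles gave the groups, since the treatment text is the same for all samples. The authors deposited a log2 signal for each probe set on each array. Per the submitters' processing notes it came from Affymetrix Expression Console. The log2 scale was inferred from the range of the values. For version, background correction, normalization, summary method and genome build, the sources used here give nothing. Precision is set by the number of arrays.

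Of 35556 probe sets, 21789 had 1 gene symbol, 1621 several and 12146 have no name in the tables used. The platform annotation gave the symbols, which were updated by Entrez identifier in a RefSeq table (GRCm38.p6, names only; 19856 of 19938 genes matched). The test was limma's moderated linear model with 2 groups, two-sided, with 6 residual degrees of freedom (limma 3.58.1, R 4.3.3). Co-variation was tested by exact permutation over all 40320 pairings of 8 arrays. Plots used matplotlib 3.10.9 in Python 3.11.15.

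The members and lists were chosen with earlier results of these data known. Named genes were all members, the extremes of each zonal and pathway list by difference over SE, 18 genes named whatever their values and the nearest patterns; of the 18, *Gls2* had no probe set naming it alone and is not analysed here. The fit and the permutation test were tested on simulated data. Alternatives covered the filter on dim genes, the choice of probe set, normalization, array weights, variance model, a block for the replicate number and each array left out. The other *Glul* probe set was added after seeing the data, as were the alternatives for the contrast with periportal genes and the tests of single members against list means, run over all 144 relations. Each replicate number was shared by a control and a treated sample, and their deviations from group means correlated between −0.16 and 0.06, so the numbers were not taken to pair the samples.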

Additional observations from a re-analysis of the deposited data

Results flagged for a closer look

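The mean of the 9 genes over gene-centred log2 signals set 1 control apart. Control 1 stood at 0.14 and the other 3 controls between −0.04 and −0.02, a gap of 0.88 of the group's range, above the critical value of 0.829 for 4 arrays. Of 20 groups examined this way, 1 passed, and chance flags about 1 in 20. *Tbx3* was highest on control 1 (9.05), where *Rgn* (11.42) and *Gulo* (12.01) were also highest, while *Axin2* (6.47) and *Rhbg* (8.21) had their lowest control value there.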

How the results depend on the processing

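No alternative gave a call among the 9 genes: 0 passed in each of the 8 other settings and with each array left out. Over all genes 0 passed in those 8 settings, and 0 to 1 with an array left out (*Sucnr1* without control 2, *Aqp8* without control 3), against 1429 genes at an unadjusted p under 0.05. The direction of *Slc13a3* was not stable: −0.03 over all arrays, −0.11 to 0.05 with an array left out, positive without control 1 (0.011) and without hydrogen water 3 (0.052). The other 8 genes kept their direction in every setting tried. *Glul* lay between 0.23 and 0.43 with an array left out. Its limma unadjusted p then ran from 0.0087 (without control 1) to 0.0896 (without control 3). That p was above 0.05 without control 3, control 4, hydrogen water 3 or hydrogen water 4. It was also above 0.05 with arrays centred on their median (0.0698), with the replicate block (0.0515) and for the other *Glul* probe set (0.0749). After quantile normalization it was 0.0195. Of the 9 genes, 0 to 2 had a limma unadjusted p under 0.05 with an array left out. In the other settings 0 to 3 did, with 3 under array weights, where 2069 of all genes did. *Gulo* was −0.02 after quantile normalization and −0.10 with arrays centred on their median, where *Slc13a3* was −0.07. The median difference of the 9 lay between −0.11 and −0.02 with an array left out and between −0.10 and −0.05 otherwise. The median difference of the 9 less that of the periportal genes was −0.11, and −0.24 to −0.02 with an array left out (−0.238 without hydrogen water 1, −0.018 without control 3). The median pairwise r of the 9 lay between −0.07 and 0.09 with an array left out and was 0.10 with arrays centred on their median. With the replicate number as a block there were 0 calls and the median pairwise r was −0.22, with 12 of 36 pairs positive; the block changed no call. With 4 arrays per group, an interval that spans 0 leaves both no difference and differences as large as its ends possible. The interval of *Glul* lay above 0 before adjustment, but that of its other probe set did not.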
